A study of Homo sapiens with 6 samples.

Results

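Glycolytic enzymes were followed in ribosome footprint libraries made from RKO, an established human line derived from a colorectal carcinoma. The 10 genes were taken by name, GPI, PFKL, PFKM, PFKP, TPI1, GAPDH, PGK1, PGAM1, ENO1 and LDHA, and all 10 were found among the 20289 genes of the table. The 6 libraries form 2 groups of 3, a control group labelled WT that carries a control hairpin RNA (shControl) and a TRMT6 knockdown group that carries a hairpin against that gene (shTRMT6). TRMT6 is the non-catalytic partner of TRMT61A in the enzyme that places m1A at position 58 of tRNAs. A footprint is the piece of mRNA that a ribosome shields from nuclease, so a level here reflects mRNA amount and ribosome loading together, which cannot be told apart in these values. How many hairpins or clones were used, and how long the knockdown lasted, is not given in the sources used here. Whether replicates were separate cultures is not stated either, and p-values then reflect only library-to-library spread, which may be technical. TRMT6 itself had 57.6, 58.4 and 95.3 FPKM in shControl and 20.7, 21.9 and 24.1 FPKM in shTRMT6 (log2 fold change -1.58, SE 0.27, limma adjusted p = 0.00301).

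Glycolysis splits glucose into pyruvate in the cytosol. An early, ATP-consuming part traps and splits the sugar, with phosphofructokinase as the committed and most regulated step, and a later part recovers ATP and NADH. Lactate dehydrogenase then turns pyruvate into lactate and regenerates NAD+. Many tumour cells, colorectal ones among them, run this route at a high rate even with oxygen present, and its enzymes are among the most abundant proteins of proliferating cells.

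After TRMT6 knockdown, footprints of TPI1, GAPDH, PGAM1 and LDHA fell and those of the phosphofructokinase genes PFKL and PFKM rose, while GPI, PFKP, PGK1 and ENO1 did not pass the test. In either direction 6 of the 10 passed, against 35.6% of all tested genes. The 4 that fell were between 2.48-fold (TPI1) and 3.54-fold (LDHA) lower by their mean FPKM, and the 2 that rose were 1.96-fold (PFKL) and 2.11-fold (PFKM) higher. The order of the 4 depended on shControl replicate 3. Relative to the mean of the other 2 controls, PGAM1 was at 0.35, TPI1 at 0.38, LDHA at 0.46 and GAPDH at 0.50 in the knockdown. Among all 11566 genes tested, 9.04% were lower and 26.5% higher by the same rule (limma on log2(FPKM + 1), Benjamini-Hochberg adjusted p under 0.05 over all tested genes). The median log2 fold change, knockdown minus control, was -0.87 over the 10 enzymes and 0.39 over all tested genes. With each library scaled to its median, which takes out a shift of this kind, the 4 lower calls held, ENO1 was also lower, and neither PFKL nor PFKM passed (adjusted p = 0.224 and 0.177). That scaling called 19.5% of all tested genes lower and 12.5% higher. The enzymes held 0.449%, 0.381% and 0.867% of the FPKM sum in shControl and 0.250%, 0.245% and 0.234% in shTRMT6.

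One control library stood apart for these genes. In shControl replicate 3, 6 of the 10 enzymes lay more than 2-fold above both other control libraries, against 6.63% of all tested genes, and 0 lay more than 2-fold below both, against 7.23%. PGK1 was 4.16-fold above the mean of the other 2 control libraries, GPI 3.15-fold, ENO1 2.95-fold, LDHA 2.91-fold, GAPDH 2.53-fold and PFKP 2.38-fold. TPI1 was at 0.80 and PGAM1 at 1.01 times that mean, and PFKL and PFKM at 1.40 and 1.48 times. By the log2 difference between replicate 3 and the others, PGK1 ranked at the 99.4th percentile of tested genes and TPI1 at the 41.8th. The fold changes of the 10 enzymes are also given without this library. For other genes the counts without it are given, with the calls that were lost and some of those gained.

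**Figure D1:**
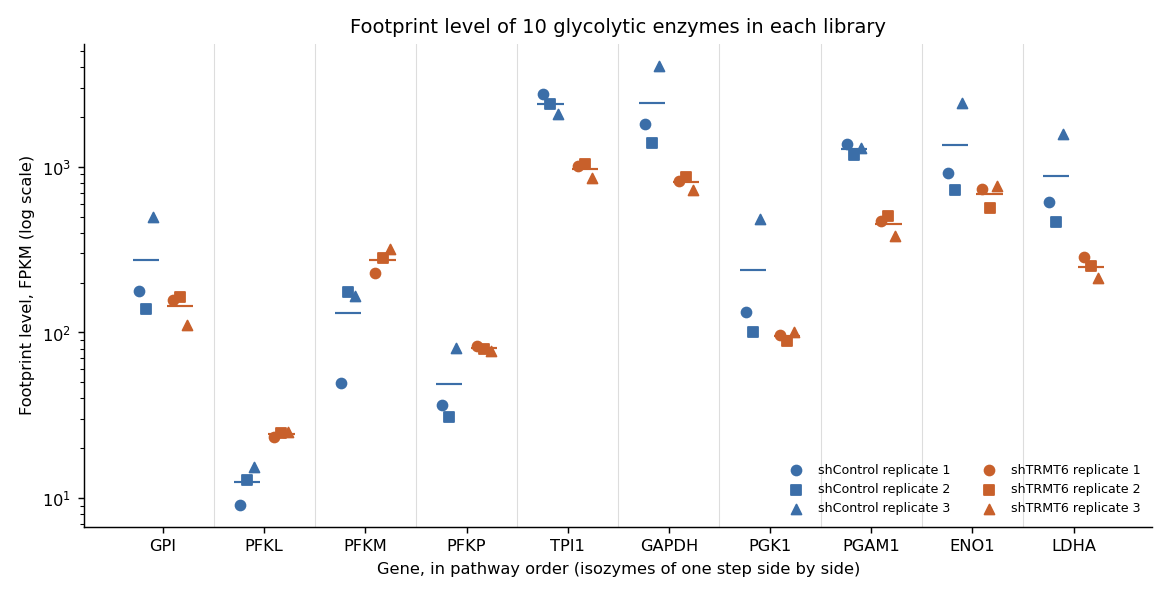
Footprint level in FPKM (log axis) of the 10 enzymes in pathway order, with 1 point per library and a bar at each group's mean (blue, shControl; orange, shTRMT6). Replicate 3 of the control group is the highest library for GPI, GAPDH, PGK1, ENO1 and LDHA, but not for TPI1, where it has 2072 FPKM against 2764 and 2398.

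Glucose-6-phosphate isomerase, GPI (ENSG00000105220, plus strand of chromosome 19 from 34359480 to 34402413; positions here are from GENCODE 29 on GRCh38, and all 10 genes are protein-coding), interconverts the phosphates of glucose and fructose. It had 178, 139 and 499 FPKM in shControl and 158, 164 and 111 FPKM in shTRMT6. The groups overlapped, and apart from shControl replicate 3 the libraries lay within a narrow range. The log2 fold change was -0.70 (SE 0.42, limma adjusted p = 0.221). Without shControl replicate 3 it was -0.15 (SE 0.22, adjusted p = 0.619), and GPI passed under 0 of the 15 alternatives planned.

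Phosphofructokinase phosphorylates fructose 6-phosphate a further time and is encoded by 3 genes, named for their main forms in liver (PFKL), muscle (PFKM) and platelets (PFKP). The isozymes can be told apart at footprint length, since their coding sequences share only short runs. Of the 28-base windows along the coding sequence, taken here as a footprint's length, 0% of those of PFKM, 0.346% of those of PFKL and 4.39% of those of PFKP occur in a transcript of another gene. The longest run that any pair of the 3 shares is 35 bases, between PFKL (coding bases 505 to 539) and PFKP (532 to 566), and it is shown because no other stretch of a window's length is shared between them:
PFKL and PFKP: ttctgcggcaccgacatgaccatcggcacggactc
The longest run shared by PFKL and PFKM has 26 bases and that of PFKM and PFKP 21 bases, which is shorter than such a window.

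PFKM (ENSG00000152556, plus strand of chromosome 12 from 48105139 to 48146404) was the most abundant isozyme in every library. It had 49.4, 176 and 167 FPKM in shControl and 227, 281 and 319 FPKM in shTRMT6. Every knockdown library was above every control library, and shControl replicate 1 was far below the other controls. PFKM rose by a log2 fold change of 1.26 (SE 0.43, limma adjusted p = 0.0467). That call is close to the threshold: it was lost without shControl replicate 1 (0.67, adjusted p = 0.0809) and without any single knockdown library (adjusted p from 0.0765 to 0.136), and PFKM passed under 6 of the 15 alternatives planned. Without shControl replicate 3 it was 1.54 (adjusted p = 0.0316).

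PFKL (ENSG00000141959, plus strand of chromosome 21 from 44300051 to 44327376) was the lowest of the 10 enzymes. Its levels were 9.11, 12.9 and 15.4 FPKM in shControl and 23.3, 24.8 and 25.1 FPKM in shTRMT6, again with no overlap. An estimated 70 to 234 reads per library lie behind these values. Counting error alone is then about 12% at the lowest count, that of shControl replicate 1. PFKL rose by 0.94 on the log2 scale (SE 0.28, limma adjusted p = 0.0267), and by 1.10 without shControl replicate 3 (adjusted p = 0.0125). Its call was lost without shControl replicate 1 and without each knockdown library, with adjusted p-values between 0.0781 and 0.0867, and it passed under 8 of the 15 alternatives.

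PFKP (ENSG00000067057, plus strand of chromosome 10 from 3066333 to 3137712) had 36.6, 30.9 and 80.1 FPKM in shControl and 82.8, 79.9 and 77.5 FPKM in shTRMT6. In shControl replicate 3 it stood at the knockdown level, and in the other 2 controls well below it. The difference did not pass with all 6 libraries (log2 fold change 0.82, SE 0.34, limma adjusted p = 0.0855). It passed without shControl replicate 3 (1.23, SE 0.18, adjusted p = 0.00284).

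Summed over the isozymes, phosphofructokinase had 95.1, 219 and 263 FPKM in shControl and 334, 385 and 422 FPKM in shTRMT6. The make-up of the sum overlapped between the groups. PFKM made up 52.0%, 80.1% and 63.6% of it in shControl and 68.2%, 72.8% and 75.7% in shTRMT6, and PFKL 5.86% to 9.58% and 5.95% to 6.99%. The median change of tested genes in the same length class was itself upward, 0.68 for the 1414 genes with 2178 to 3081 coding bases, where all 3 isozymes fall with 2340 to 2352. With the trends by level and coding length removed, PFKM had a log2 fold change of 0.98 (adjusted p = 0.0712), PFKL 0.25 (adjusted p = 0.482) and PFKP 0.24 (adjusted p = 0.597), and none passed.

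Triose-phosphate isomerase, TPI1 (ENSG00000111669, plus strand of chromosome 12 from 6867119 to 6870948), makes both products of aldolase available to the later steps. It had 2764, 2398 and 2072 FPKM in shControl and 1007, 1045 and 862 FPKM in shTRMT6, so the groups were far apart and shControl replicate 3 was the lowest control. TPI1 fell by 1.31 on the log2 scale (SE 0.20, limma adjusted p = 0.00221). It passed under all 15 alternatives planned, with a log2 fold change between -1.79 and -0.72. Without shControl replicate 3 it was -1.41 (adjusted p = 0.00114).

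Glyceraldehyde-3-phosphate dehydrogenase, GAPDH (ENSG00000111640, plus strand of chromosome 12 from 6533927 to 6538374), is the step that makes NADH. It had 1823, 1390 and 4068 FPKM in shControl against 826, 869 and 726 FPKM in shTRMT6. All controls were above all knockdown libraries, and the knockdown libraries were much closer to each other than the controls (SD of log2 values 0.13 against 0.81, where the medians over tested genes were 0.25 and 0.40). GAPDH fell by 1.43 on the log2 scale (SE 0.35, limma adjusted p = 0.0128). Without shControl replicate 3 the fall was smaller but more precise, at -0.98 (SE 0.16, adjusted p = 0.004). The call was lost with quantile normalization (-0.96, adjusted p = 0.101) and, narrowly, without shTRMT6 replicate 3 (-1.36, adjusted p = 0.0507).

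Phosphoglycerate kinase, PGK1 (ENSG00000102144, plus strand of chromosome X from 77910739 to 78129296), makes the first ATP of the later part. Its levels were 133, 101 and 486 FPKM in shControl and 96.6, 89.3 and 100.5 FPKM in shTRMT6. The groups did not overlap, yet shControl replicate 2 and shTRMT6 replicate 3 nearly touched. The log2 fold change of -0.96 (SE 0.49) did not pass (limma adjusted p = 0.149). Without shControl replicate 3 it was -0.28 (SE 0.18, adjusted p = 0.257), and without shControl replicate 2 it passed (-1.40, adjusted p = 0.0424).

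Phosphoglycerate mutase, PGAM1 (ENSG00000171314, plus strand of chromosome 10 from 97426160 to 97433441), moves the phosphate of 3-phosphoglycerate. It had the steadiest control values of the 10, at 1374, 1183 and 1294 FPKM, and 470, 502 and 385 FPKM in shTRMT6. PGAM1 fell by 1.51 on the log2 scale (SE 0.20, limma adjusted p = 0.00124), and by 1.5 without shControl replicate 3 (adjusted p = 0.0013). It passed under all 15 alternatives planned, with adjusted p-values of 0.000463 to 0.0105. Its reads are the hardest of all to assign. Every one of the 735 windows of 28 bases in its coding sequence occurs in a transcript of another gene, 63.1% of them in PGAM4, an intronless copy with its own entry in the table. The processed pseudogenes AC012085.1 and AC078819.1, which have no entry there, hold 96.2% and 92.4% of the windows. The coding sequences of PGAM1 and PGAM4 are 762 bases long and 98.3% identical, with 13 differing bases. The stretch below, coding bases 568 to 597, holds 3 of them, in capitals. It is shown because footprints over it can separate PGAM1 from PGAM4, though not from every other copy:
PGAM1: ctccGgggcattgTcaagcatCtggagggt
PGAM4: ctccAgggcattgCcaagcatGtggagggt
The substitutions are G572A, T581C and C589G, written from PGAM1 to PGAM4 and counted from 1 at the A of the start codon. PGAM4 is listed at 0 in all 6 libraries. How the authors divided reads between copies is not given in the sources used here.

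Enolase 1, ENO1 (ENSG00000074800, minus strand of chromosome 1 from 8861000 to 8879250), forms phosphoenolpyruvate. It had 921, 725 and 2429 FPKM in shControl and 732, 566 and 765 FPKM in shTRMT6. The groups overlapped, since shTRMT6 replicates 1 and 3 were above shControl replicate 2. The log2 fold change was -0.79 (SE 0.40, limma adjusted p = 0.148), and -0.26 without shControl replicate 3 (SE 0.18, adjusted p = 0.281). ENO1 passed under 2 of the 15 alternatives, with each library scaled to its median (-1.26, adjusted p = 0.0407) and without shControl replicate 2 (-1.13, adjusted p = 0.049). With that scaling and without shControl replicate 3 it also passed (-0.72, adjusted p = 0.0262).

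Lactate dehydrogenase A, LDHA (ENSG00000134333, plus strand of chromosome 11 from 18394388 to 18408425), encodes the subunit that favours lactate formation. It had 613, 466 and 1570 FPKM in shControl and 285, 250.3 and 213 FPKM in shTRMT6, with no overlap. LDHA fell by 1.62 on the log2 scale (SE 0.39, limma adjusted p = 0.0121), the lowest fold change of the 10 with all 6 libraries. It passed under all 15 alternatives, and without shControl replicate 3 the log2 fold change was -1.11 (SE 0.19, adjusted p = 0.00429). In that fit PGAM1 (-1.50) and TPI1 (-1.41) were lower than LDHA. The sister subunit LDHB, which is no member of the set, moved alongside, from 906, 701 and 2475 FPKM to 471, 392 and 408 FPKM. LDHA thus made up 40.3%, 39.9% and 38.8% of the summed LDHA and LDHB level in shControl and 37.7%, 39.0% and 34.3% in shTRMT6. That share differed little although the level of each gene varied several-fold between libraries. The longest run that the coding sequences of LDHA and LDHB share is 17 bases, so their footprints can be told apart.

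**Figure D2:**
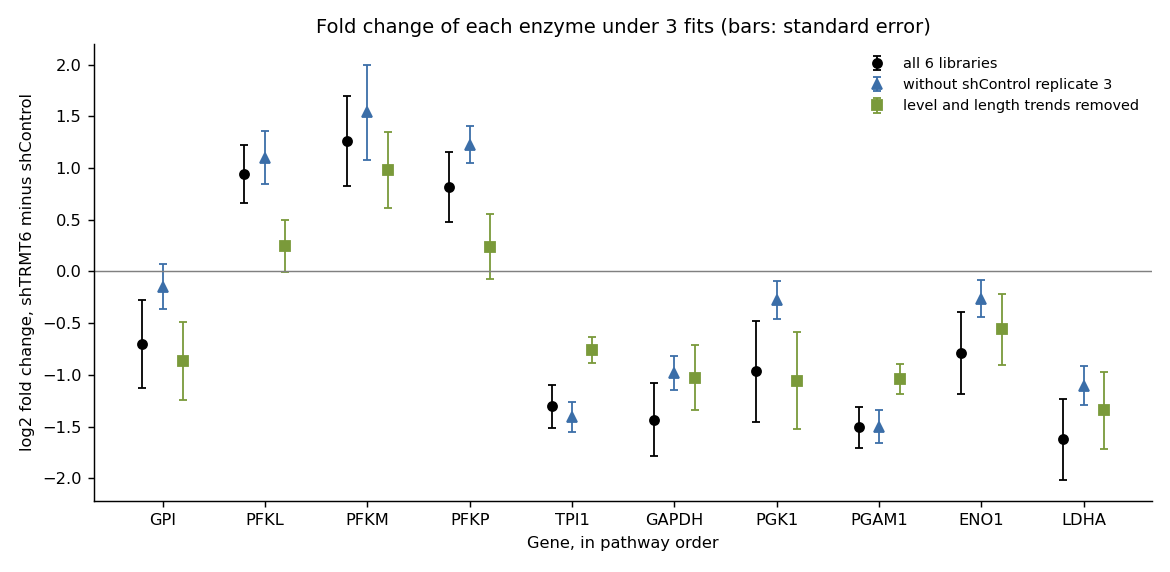
Log2 fold change of each enzyme (shTRMT6 minus shControl, on the log2(FPKM + 1) scale) with its standard error, from all 6 libraries (black), without shControl replicate 3 (blue) and with trends by level and length removed (green). TPI1 and PGAM1 hardly moved without that library, whereas GPI, PGK1 and ENO1 came close to 0, at -0.15, -0.28 and -0.26.

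Without shControl replicate 3, 4 members were lower and 3 higher, against 12.3% and 28.3% of all tested genes. TPI1, GAPDH, PGAM1 and LDHA were the lower ones and PFKL, PFKM and PFKP the higher ones. GPI, PGK1 and ENO1 did not pass. The share of members that were higher was near that of all tested genes. In the length class of the 3 phosphofructokinases the median log2 fold change of this fit was itself 0.77. With the trends by level and length also removed, 0 members were higher (limma adjusted p = 0.28 for PFKL, 0.0638 for PFKM and 0.0933 for PFKP). Groups that did not overlap were found for 5 members on the lower side (TPI1, GAPDH, PGK1, PGAM1 and LDHA) and 2 on the higher (PFKL and PFKM), against 14.3% and 37% of all tested genes.

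Levels relative to TPI1 of the same library do not depend on a scaling factor that all genes of a library share. GAPDH was at 0.66 and 0.58 times TPI1 in shControl replicates 1 and 2, at 1.96 in shControl replicate 3, and at 0.82, 0.83 and 0.84 in shTRMT6. The knockdown values thus lay between those of the control libraries. ENO1 was at 0.33, 0.30 and 1.17 times TPI1 in shControl and 0.73, 0.54 and 0.89 in shTRMT6, and GPI at 0.064, 0.058 and 0.24 against 0.16, 0.16 and 0.13. PGAM1 kept close to TPI1 throughout, at 0.50, 0.49 and 0.62 in shControl and 0.47, 0.48 and 0.45 in shTRMT6. Relative to GAPDH, LDHA was at 0.34, 0.34 and 0.39 in shControl and 0.35, 0.29 and 0.29 in shTRMT6. Summed phosphofructokinase, in contrast, was at 0.052, 0.16 and 0.065 times GAPDH in shControl and at 0.40, 0.44 and 0.58 in shTRMT6, with no overlap. Such a ratio keeps the trend of fold change with coding length. The median log2 fold change was 0.68 in the length class of the phosphofructokinases and 0.12 in that of GAPDH. With trends by level and length removed, no phosphofructokinase gene passed.

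**Figure D3:**
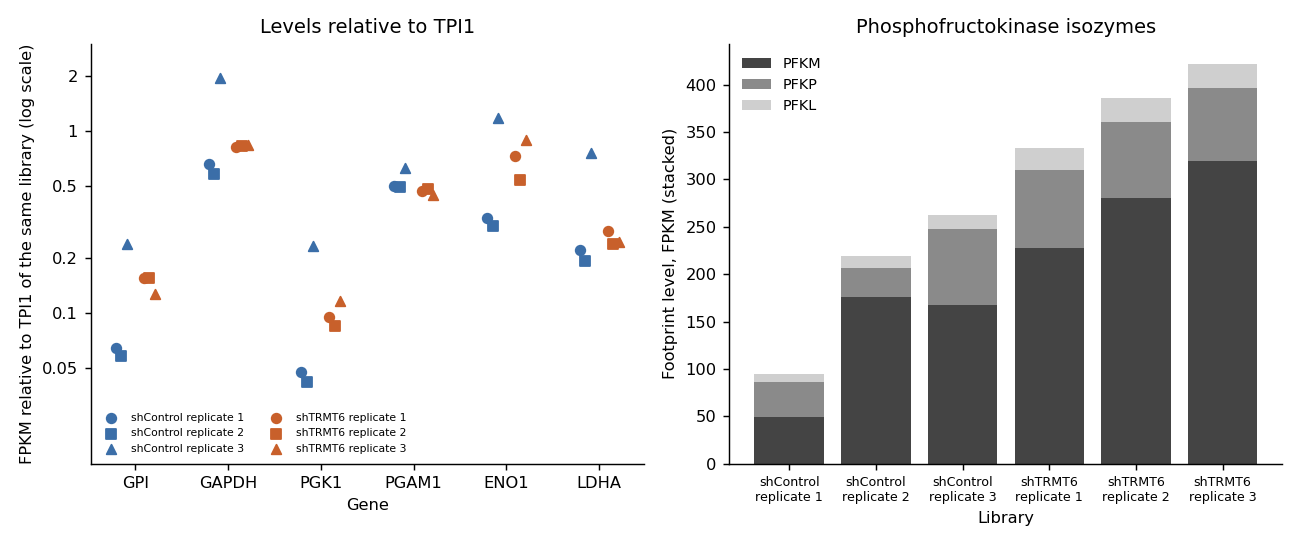
Left, FPKM of 6 enzymes divided by TPI1 of the same library (log axis, 1 point per library), where shControl replicate 3 is the highest library for all 6. Right, stacked FPKM of the phosphofructokinase isozymes per library, with 95.1 FPKM in shControl replicate 1 as the lowest sum and 422 FPKM in shTRMT6 replicate 3 as the highest.

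FPKM is scaled to gene length, so levels can also be ordered between genes. By mean control FPKM the order was GAPDH (2427), TPI1 (2411), ENO1 (1358), PGAM1 (1284), LDHA (883), GPI (272), PGK1 (240), PFKM (131), PFKP (49.2) and PFKL (12.5). The ranges of all neighbours in it overlapped except PFKP and PFKL, whereas without shControl replicate 3 only PGK1 and PFKM overlapped. In the knockdown libraries TPI1 was at the top with 971 FPKM, followed by GAPDH (807), ENO1 (687), PGAM1 (453), PFKM (276) and LDHA (249.5). There the neighbours TPI1 and GAPDH, GAPDH and ENO1, and PFKM and LDHA overlapped. PFKM thus moved from the eighth to the fifth place, and its mean went from the 83.7th to the 92.2nd percentile of tested genes, while that of LDHA went from the 96.9th to the 91.4th.

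Fold changes also followed coding length among the 10. TPI1 and PGAM1, with 747 and 762 coding bases, and LDHA and GAPDH, with 996 and 1005, were the members that fell. PGK1, ENO1 and GPI, with 1251 to 1674, had log2 fold changes of -0.96 to -0.70, and the 3 phosphofructokinases were the longest. Across 11355 tested genes with a coding length, Spearman's rho of fold change with length was 0.37, a description over genes that share the same libraries and are not independent. The members below 1700 bases lay well under the median of their length class, for example LDHA and GAPDH against a median of 0.12 for genes with 846 to 1098 coding bases. Leaving out shControl replicate 3 gave a rho with length of 0.45 and a median of 0.08 in that length class. Level went with fold change as well (rho -0.34 over 11566 genes). With both trends removed, TPI1 had a log2 fold change of -0.76 (adjusted p = 0.00324), GAPDH -1.03 (0.0358), PGAM1 -1.04 (0.00152) and LDHA -1.34 (0.0252), so 4 members were lower and 0 higher, against 13.8% and 13.6% of the genes in that fit.

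**Figure D4:**
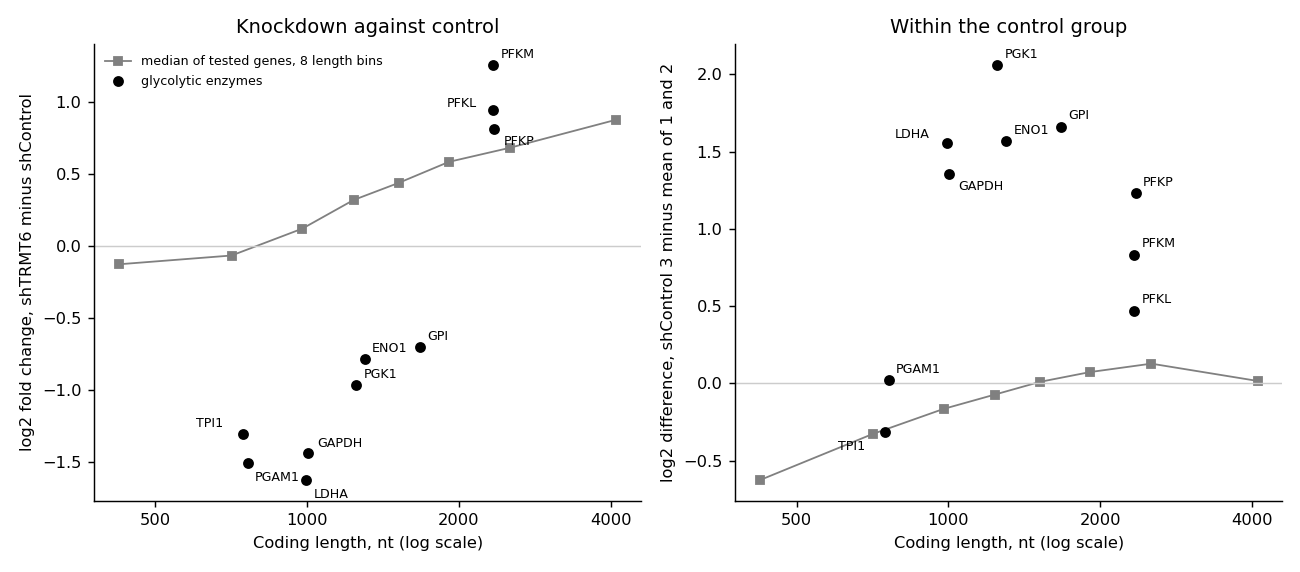
The 10 enzymes by coding length (log axis), with the medians of all tested genes in 8 length classes in grey. Left, log2 fold change between the groups, where every enzyme below 1700 bases lies under the grey line; right, shControl replicate 3 minus the mean of the other control libraries, where TPI1 (-0.31) and PGAM1 (0.02) lie apart from the other members.

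The excess in shControl replicate 3 was likewise lower for short genes in general. The median log2 difference of that library from the other 2 controls was -0.33 for tested genes of 582 to 843 coding bases, the class of TPI1 and PGAM1, and 0.01 for those of 1374 to 1692. GAPDH and LDHA, at 1.35 and 1.55, were far above the median of -0.17 in their class. Across 11355 genes Spearman's rho of this difference with coding length was 0.31, and with the share of G or C at the last codon position -0.21. The part of length in the pattern was not tested.

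Copies elsewhere in the genome touch other members too. The share of 28-base windows found in transcripts of another gene was 70.4% for GAPDH, 68.9% for TPI1, 53.0% for LDHA, 34.6% for PGK1, 21.5% for ENO1 and 10.1% for GPI. GAPDH shares windows with 50 other genes, of which the processed pseudogene GAPDHP1 alone holds 32.7% of its windows, and TPI1P1 holds 64.7% of those of TPI1. Among genes with an entry in the deposited table the shares were 21.5% for ENO1, 10.1% for GPI, 2.53% for PGK1, 2.15% for GAPDH and 0% for TPI1 and LDHA. The intronless kinase copy PGK2 is listed at 0 in every library. How much of a level came from such copies was not tested.

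Promoters of the members are shown because 6 of them were high together in shControl replicate 3 and because HIF-1 and MYC, the best known activators of glycolytic genes, bind a shared core. The motif ACGTG, searched on both strands, is a form of the core of the HIF-1 site and is part of CACGTG, the E-box that MYC binds. It occurs within 250 bases before a RefSeq start (GRCh38.p14) of 7 of the 10 genes, against 21.7% of all genes in the table of promoters, where genes with several starts have more chances. The lines below give 30 bases around 1 match for each of the 5 members with a match that were more than 2-fold high in that library, then for TPI1, which was not, with the match in capitals:
GAPDH, 81 bases before the start, chr12:6535171-6535200, plus strand: gctctgcggggtCACGTgtcgcagaggagc
PGK1, 202 bases before the start, chrX:78104034-78104063, plus strand: gcggcgtgccggACGTGacaaacggaagcc
LDHA, 87 bases before the start, chr11:18394464-18394493, plus strand: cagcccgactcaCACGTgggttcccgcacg
GPI, 162 bases before the start, chr19:34364818-34364847, plus strand: acactgcctgtaACGTGgaaggtgttcgat
PFKP, 139 bases before the start, chr10:3069038-3069067, plus strand: ccacgagcgcctACGTGatgcccggcccgt
TPI1, 17 bases before the start, chr12:6868075-6868104, plus strand: ccgtgcgccgccgCACGTagccccagactc
PFKM, which was not 2-fold high there, also has a match, 122 bases before 1 of its 7 starts. Matches of PFKP lie before 1 of 4 starts, and those of TPI1 and LDHA before 1 of 2. For ENO1, which was also high in that library, and for PFKL and PGAM1 these letters are not in the window. Other forms of the HIF-1 core were not searched. A match is a description of the sequence and not a bound site, and its relation to the levels was not tested.

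HIF1A and MYC themselves did not pass with all 6 libraries. HIF1A had 18.9, 16.5 and 67.8 FPKM in shControl and 27.95, 23.0 and 30.3 FPKM in shTRMT6 (log2 fold change -0.05, limma adjusted p = 0.949, and 0.58, adjusted p = 0.085, without shControl replicate 3). It was highest in shControl replicate 3, as were GPI, GAPDH, PGK1, ENO1 and LDHA but not the other members. MYC had 335, 432 and 579 FPKM in shControl and 699, 721 and 655 FPKM in shTRMT6, without overlap (0.66, adjusted p = 0.0527), and passed without shControl replicate 3 (0.86, adjusted p = 0.00531). Of 16 tested HIF-1 targets that are not glycolytic enzymes, 4 were higher and 1 lower after knockdown, close to the 26.5% and 9.04% of all tested genes, and the counts were the same without shControl replicate 3. In that library 0 of the 16 were more than 2-fold above both other controls, where 6.63% of all tested genes were. Whether HIF-1 or MYC had a part in the levels of that library was not tested. VEGFA, the vessel growth factor, had 25.7, 27.9 and 16.1 FPKM in shControl and 84.4, 76.9 and 65.2 FPKM in shTRMT6 (1.69, adjusted p = 0.00251). BNIP3L, a mitophagy receptor, fell by 1.23 on the log2 scale (adjusted p = 0.00366), and DDIT4 (1.70) and MXI1 (1.11) rose.

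Of 20 further glycolytic genes and isozymes 11 were tested, of which 2 were lower, 3 higher and 6 did not pass, beside 9.04% lower and 26.5% higher among all tested genes. Aldolase A, ALDOA, which splits fructose bisphosphate, went from 919, 695 and 1964 FPKM to 523, 574 and 479 FPKM (log2 fold change -1.04, limma adjusted p = 0.04), and LDHB had -1.46 (adjusted p = 0.0203). Both still passed without shControl replicate 3, at -0.61 (adjusted p = 0.023) and -0.92 (adjusted p = 0.00532). The pyruvate kinase PKM had 839, 791 and 3920 FPKM in shControl and 724, 729 and 680 FPKM in shTRMT6, which did not pass (-0.95, adjusted p = 0.177), nor without that library (-0.20, adjusted p = 0.241). The hexokinases HK1 and HK2 overlapped between the groups and did not pass, and were 3.67-fold and 3.51-fold above the higher of the other controls in shControl replicate 3. Without it HK2 passed upward (1.09, adjusted p = 0.0305) and HK1 did not (0.47, adjusted p = 0.149). In all, 6 of these 11 genes were more than 2-fold above both other controls there, against 6.63% of all tested genes. The neuronal enolase ENO2 had 52.8, 87.6 and 135 FPKM in shControl and 156, 136 and 174 FPKM in shTRMT6. It did not pass with all libraries (0.84, adjusted p = 0.0674) but passed without shControl replicate 3 (1.17, adjusted p = 0.00834). The aldolase isozyme ALDOC (-0.87, adjusted p = 0.168) and the bisphosphoglycerate mutase BPGM (-0.51, adjusted p = 0.245) did not pass with or without it. ENO3, the muscle enolase, and GAPDHS, the testis form of GAPDH, rose from 1.99 and 0.997 FPKM to 11.3 and 7.71 FPKM on average, both at levels far below ENO1 and GAPDH. GAPDHS had 1, 1.57 and 0.42 FPKM in shControl, so it met the level filter only through the knockdown libraries, where it is high. Its place among the higher genes therefore carries no weight. The ADP-dependent glucokinase ADPGK rose with a log2 fold change of 0.88. ENO3, GAPDHS and ADPGK also passed without shControl replicate 3, where 2 of the 11 were lower and 5 higher.

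Among carriers of glucose and lactate 2 of 11 tested genes were lower and 1 higher, and 0 were more than 2-fold above the other controls in shControl replicate 3, beside 6.63% of all tested genes. The lactate carriers SLC16A1 and SLC16A3 fell. SLC16A1 had 307, 278 and 311 FPKM in shControl and 153, 156 and 166 FPKM in shTRMT6 (log2 fold change -0.91, limma adjusted p = 0.00689), and SLC16A3, the main lactate exporter of glycolytic cells, had -1.05 (adjusted p = 0.0116). Their chaperone BSG (-0.65, adjusted p = 0.0638) and the glucose carrier SLC2A1 (-0.53, adjusted p = 0.0735) did not pass, although neither overlapped between groups. SLC2A6 was the 1 carrier that rose (0.75, adjusted p = 0.0447). SLC16A1 and SLC16A3 still passed without shControl replicate 3, where BSG (-0.77, adjusted p = 0.0244) and SLC2A1 (-0.53, adjusted p = 0.0431) now passed, and SLC2A6 no longer did (0.68, adjusted p = 0.0571).

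Of 12 tested regulators of glycolysis 5 were higher and 0 lower, beside 26.5% and 9.04% of all tested genes. PFKFB2 and PFKFB3 make fructose 2,6-bisphosphate, the activator of phosphofructokinase. PFKFB3 had 65.7, 44.3 and 40.6 FPKM in shControl and 95.3, 92.4 and 78.1 FPKM in shTRMT6 (log2 fold change 0.83, limma adjusted p = 0.0288), and PFKFB2 had 1.98 (adjusted p = 0.00598). PFKFB4, of the same family (0.49, adjusted p = 0.257), and TIGAR, which breaks that activator down (0.46, adjusted p = 0.166), did not pass. MLXIP, a glucose-sensing transcription factor, rose by 1.80 on the log2 scale and its target TXNIP, which restrains glucose uptake, by 1.48. The fifth gene was MLXIPL, which did not pass without shControl replicate 3 (1.24, adjusted p = 0.0516), while the other 4 did. MLXIPL had 0, 0.18 and 0 FPKM in shControl and a mean of only 1.58 FPKM in shTRMT6. It reached 1 FPKM in the knockdown libraries only and so entered the test through the group where it is high. Its place among the 5 therefore carries no weight.

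Routes that leave glycolysis had more genes lower than higher. Beside 9.04% lower and 26.5% higher among all tested genes, in the pentose phosphate list 3 of 10 tested genes were lower and 1 higher. TALDO1, transaldolase, had 592, 505 and 831 FPKM in shControl and 288, 318 and 292 FPKM in shTRMT6 (log2 fold change -1.07, limma adjusted p = 0.00738). PRPS2 and PGD were also lower, and H6PD was the higher gene. PGD was 3.86-fold above the mean of the other controls in shControl replicate 3. For pyruvate entry into mitochondria 2 of 14 were lower and 0 higher, the pyruvate dehydrogenase subunits PDHB (-1.18) and DLAT (-1.28). The citric acid cycle had 5 of 16 lower and 0 higher, with FH (-1.32), MDH2 (-1.10), SUCLG2 (-1.05) and IDH3B (-1.09) among them. Gluconeogenesis and the branches to glycogen, hexosamine and glycerol phosphate had 3 of 15 lower, GFPT2, GPD1L and PYGL, and 1 higher, the glycogen synthase GYS1 (1.37). Over all 105 tested genes of the 8 further lists 18 were lower and 15 higher, and their median change was -0.14 (log2). The 15 include MLXIPL and GAPDHS, which entered the test through the group where they are high. The counts lower and higher without shControl replicate 3 were 6 and 1 for the pentose phosphate list, 4 and 1 for pyruvate entry, 5 and 0 for the citric acid cycle and 2 and 3 for gluconeogenesis and branches. H6PD (0.82, adjusted p = 0.0944) and PYGL (-0.56, adjusted p = 0.0588) lost their calls there, and PGD had -0.70 (adjusted p = 0.0193). In that fit gluconeogenesis and branches thus no longer had more genes lower than higher.

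The libraries rest on an estimated 2554278 to 4040404 reads on coding sequence each, read from the steps between low FPKM values. By this estimate TPI1 has 1645 to 6747 reads per library and GAPDH 1865 to 15937. Counting error is then at most about 5.58% for every member but PFKL and PFKP. Pearson's r of log values over tested genes was 0.936 and 0.944 between shControl replicate 3 and the other controls, and 0.964 between those. Mitochondrially encoded genes held 0.790% to 2.02% of the FPKM sum in shControl and 7.74% to 13.7% in shTRMT6, and replication-dependent histones 5.19% to 6.19% against 1.22% to 1.80%. With FPKM rescaled to the sum without both classes, the members still had 4 lower and 2 higher calls. Of 7 epithelial and intestinal markers EPCAM, KRT8, KRT18 and CDX2 were tested and 0 passed, while CDH1 and VIL1 are listed at 0 in every library. The 12 markers of fibroblasts, endothelium, blood and muscle summed to 0.09 to 5.69 FPKM per library.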

How the data were processed

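The values are FPKM per gene, which the authors deposited as 1 table, per the file headers; per the submitters' processing notes, RSEM, STAR and fastp were used, in roles and versions not recorded there. Build, annotation, strand use and handling of copies: not given in the sources used here. Columns headed NC were read as shControl and SH as shTRMT6, by their numbers, which no label spells out; 0 columns were left out.

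Values were transformed as log2(FPKM + 1). A gene entered when 3 or more libraries reached 1 FPKM, which left 11566. The 2 groups were compared by limma 3.58.1 (R 4.3.3) with no covariate and a trended prior variance; fold changes on this scale understate those of low genes. Adjusted p-values are Benjamini-Hochberg over these genes, at 0.05, two-sided. It was tested on simulated data. Symbols matched 19705 identifiers. Coding sequences, 1 per gene, came from GENCODE 29, which may differ from the authors' annotation. Depth was estimated from single-transcript genes, where 65.8% to 75.7% of low values lay within 0.1 of a whole read, and no count model was fitted. Trends by level and coding length were splines with 5 degrees of freedom per library.

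The members and lists were chosen with earlier results of these data known, so no list was tested. All members are named; from other lists, genes past the threshold, by smallest p, and all tested glycolytic isozymes. HIF1A, MYC, BSG, SLC2A1, PFKFB3, PFKFB4 and TIGAR were named after their values were seen. Alternatives were other scalings, filters, pseudocounts, the replicate block and leaving out each library. Tables and plots used Python 3.11.15, pandas 2.3.3 and matplotlib 3.10.9.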

Additional observations from a re-analysis of the deposited data

How the results depend on the processing

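Every member kept the sign of its fold change in all 170 refits of single members, and 141 of those kept their side of the threshold. With each library scaled to its median, 0 members were higher, and 2260 and 1449 tested genes and 37 and 6 genes of the further lists were lower and higher. Quantile normalization gave 1 higher member, 1700 and 1602 tested genes, and 31 and 8 list genes; removing trends gave 0 higher members, 1539 higher tested genes (1563 lower), and 28 and 8 list genes. No filter, a pseudocount of 0.1 or no intensity trend each left 1 higher member. Leaving out 1 library in turn gave 3 to 6 lower and 0 to 3 higher members, 587 to 1428 lower and 1828 to 3270 higher tested genes, 10 to 24 lower and 6 to 19 higher list genes, and a mean member share of 0.415% to 0.658% in shControl and 0.239% to 0.247% in shTRMT6. The last became 0.279% of the sum without mitochondrial and histone genes. Added after seeing the data, median scaling without shControl replicate 3 gave 1 higher member (6 lower), 2719 and 1620 tested genes, and 41 and 9 list genes, and trend removal without it 0 higher members, 1671 and 1608 tested genes and 32 lower list genes. Whether the replicate numbers pair the libraries is not given. Same-numbered ones had correlations of 0.012, 0.013 and 0.10 of their deviations, and differently numbered ones -0.14 to 0.13. Such values cannot decide it. With the replicate block 4 members were lower and 2 higher, among 1065 and 3146 tested genes. The limma adjusted p was then smaller than in the main fit for every member but PFKL (0.0365), with 0.00914 for PFKM and 0.0594 for PGK1. The cause of these changes was not tested. Depth limits PFKL most, and reads from copies cannot be separated in FPKM.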
